A study of Mus musculus with 8 samples.

Results

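Adhesion G protein-coupled receptors (GPCRs) form a family of cell surface receptors, and 10 of its genes were followed in brain endothelial cells (ECs) of mouse pups that express an activated MAP2K1. The genes were taken as a fixed list of symbols, *Adgrl1*, *Adgrl2*, *Adgrl3*, *Adgrl4*, *Adgrf5*, *Adgrg1*, *Adgrg3*, *Adgrg6*, *Adgre5* and *Adgrb3*, and all 10 were found among the 49315 genes counted and passed the filter on low counts. RNA sequencing had been performed on 8 libraries, 4 from mutant and 4 from wild-type pups. Mutant pups carried R26 GT-Map2k1-GFP/+ and Tg-Cdh5CreER+/-, and tamoxifen given to the litters at postnatal day 1 (P1) let the Cre recombinase, driven by the promoter of the endothelial cadherin gene *Cdh5*, remove a stop cassette in front of a *Map2k1* p.K57N cDNA under a CAG promoter. The labels call the controls wild type, and the study describes them as pups of the same tamoxifen-treated litters, with their alleles not given in the labels. Both strains had been backcrossed to C57BL/6J. ECs were pulled from whole P9 brains with beads carrying an antibody to CD31, so a library holds recombined and unrecombined ECs together with any other cell that stayed on the beads. By droplet digital PCR, the study found the recombined allele in only a minority of the brain ECs of mutant pups. Values given for mutant ECs are thus averages over recombined and unrecombined cells.

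Adhesion GPCRs have a long extracellular part that is usually cut by the receptor itself at a site close to the membrane. The stub that stays on the membrane part can act as a tethered agonist, and the outer part binds matrix or proteins of neighbouring cells. In this way the receptors couple adhesion to G proteins. In vessels, *Adgrl4* and *Adgrf5* are known as endothelial receptors, and *Adgra2*, a relative outside the 10, is known as a co-receptor for Wnt7 in the growth of brain vessels and the barrier.

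Between 24833373 and 34196955 reads were counted on genes per mutant library and between 28146348 and 32208421 per wild-type library. *Map2k1*, whose counts include the transgene cDNA, had 12692 to 18734 normalized counts in mutant and 1506 to 1762 in wild-type libraries, in keeping with every label. Normalized counts are counts scaled by TMM to the mean library size. The summed level of 10 endothelial markers ran from 365500 to 443500 normalized counts in mutant and from 343900 to 416700 in wild-type libraries, and none was at 0 in any library. Single endothelial markers did differ, with *Cdh5* called higher (log2 fold change 1.11), *Emcn* (0.82) and *Pecam1* (0.53) higher at an adjusted p under 0.05 alone, and *Kdr* (-0.59), *Cldn5* (-0.47) and *Tek* (-0.44) lower. These differences are of the size of those of *Adgrl4* and *Adgre5* given below. Most markers of 2 other lineages were called between the groups, where 14.0% of all genes tested were called, 5.90% higher and 8.05% lower. Of 8 neuron markers 5 were called lower in mutant libraries and none higher (summed level 629 to 906 against 1088 to 2230), and of 6 oligodendrocyte lineage markers all 6 were called lower (964 to 1849 against 2997 to 8033). None of these 14 markers was at 0 in any library. The neuron marker *Rbfox3* went the other way without passing, with means of 294 normalized counts in mutant and 129 in wild-type libraries (log2 fold change 1.185, edgeR adjusted p = 0.0514). No marker of pericytes and smooth muscle, astrocytes, microglia and macrophages, neutrophils or fibroblasts was called, although the summed level of 5 astrocyte markers was 18300 to 22000 in mutant and 10620 to 12610 in wild-type libraries. That sum was mostly *Gja1* (log2 fold change 0.80), while *Aqp4*, *Slc1a3* and *Aldh1l1* had log2 fold changes of -0.87, -0.60 and -0.96, of which the last passed an adjusted p under 0.05, and the median of the 5 was -0.60. At an adjusted p under 0.05 alone, 2 of 8 pericyte and smooth muscle and 2 of 4 fibroblast markers were higher in mutant libraries. No marker of these types was lower, and 21.5% of all genes tested were higher by that limit and 22.9% lower. Lymphocyte and NK cell markers are given with *Adgrg3*. In bulk libraries, fewer cells of a type and less RNA per cell cannot be told apart.

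Of the 10 receptors, *Adgrg3* changed most, with 8.80-fold more counts in mutant than in wild-type ECs. It was the only 1 of the 10 to be called, that is to show a log2 fold change beyond 1 in either direction with an adjusted p below 0.05 in edgeR (quasi-likelihood F test, adjusted by Benjamini-Hochberg across every gene tested). Among all 16887 genes tested, 14.0% were called, 5.90% higher and 8.05% lower in mutant ECs. Without the limit on fold change, 3 of the 10 were higher (*Adgrg3*, *Adgrl4* and *Adgrl3*) and 3 lower (*Adgre5*, *Adgrg6* and *Adgrl1*) at an adjusted p under 0.05, where 44.4% of all genes passed, 21.5% higher and 22.9% lower. For these 6 receptors, and for 42.5% of all genes, no mutant value fell within the wild-type range or the reverse. The median log2 fold change of the 10 was -0.09, beside -0.02 over all genes tested. The counts were thus not far from those of all genes, and nothing is read from them about the receptors as a group.

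**Figure D1:**
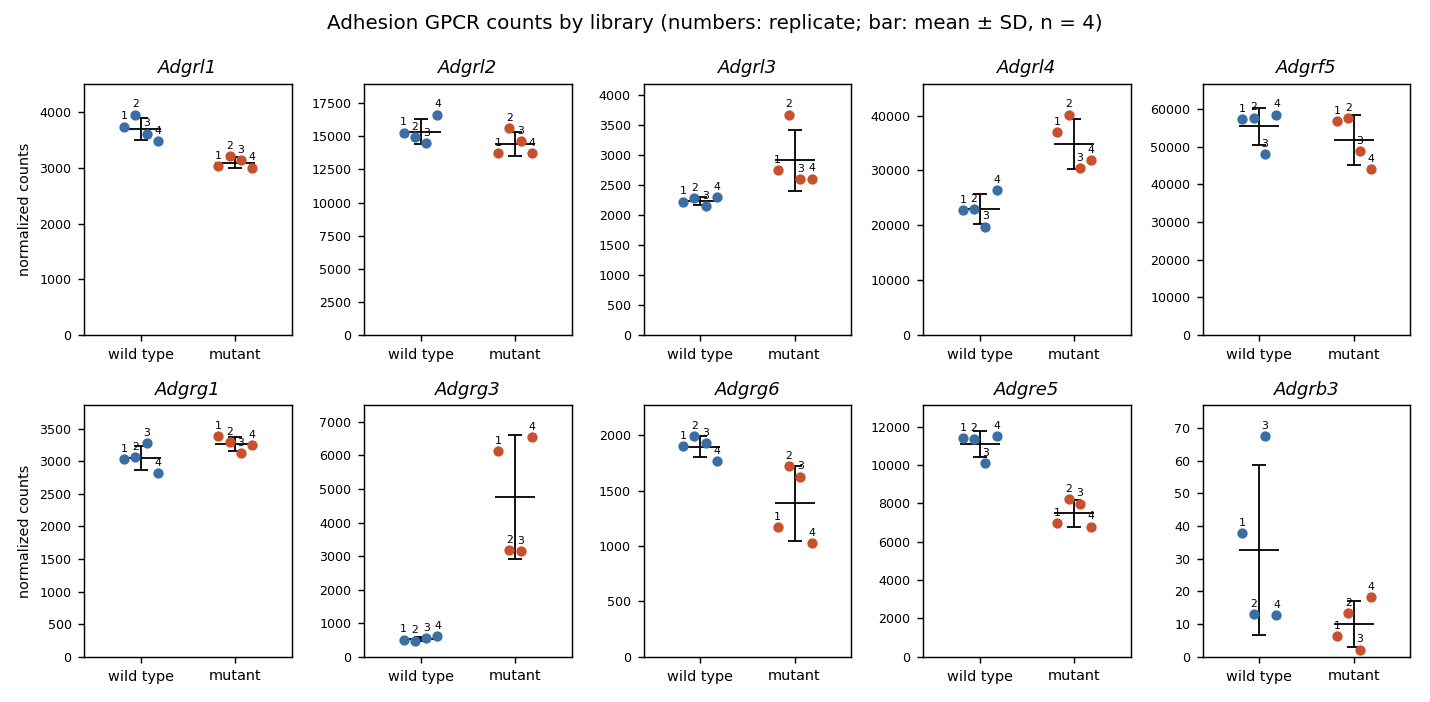
Normalized counts (vertical axis, from 0) of each of the 10 receptors in the 4 wild-type (blue) and 4 mutant (orange) libraries, with replicate numbers beside the points and the mean ± SD as a bar. The mutant points of *Adgrg3* lie between 3138 and 6541 and its wild-type points between 482 and 612, while the points of *Adgrf5*, *Adgrl2*, *Adgrg1* and *Adgrb3* overlap.

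*Adgrg3* encodes GPR97, a receptor best known from neutrophils and other leukocytes. It lies on the plus strand of chromosome 8 of GRCm38 from 95017692 to 95045250 (ENSMUSG00000060470). The mutant libraries 1 to 4 had 6135, 3171, 3138 and 6541 normalized counts of *Adgrg3*. The wild-type libraries 1 to 4 had 512, 482, 552 and 612. Every mutant library was far above every wild-type library, and the mutant libraries fell into a high pair (1 and 4) and a low pair (2 and 3). The means were 4746 ± 1845 (SD, n = 4) and 540 ± 56.0 (SD, n = 4), and on the log2 scale the change was 3.14 (standard error 0.25, edgeR adjusted p = 1.27e-05). By the size of its log2 fold change the gene ranked 158 among all 16887 tested. With any 1 library removed, *Adgrg3* had a log2 fold change of 2.96 to 3.30. Levels of leukocyte markers are given beside this, since the gene is known from such cells. Of 6 neutrophil markers, 5 could be tested and none was called, *Retnlg* was lower at an adjusted p under 0.05, their summed level ran from 295 to 589 normalized counts in mutant and from 328 to 701 in wild-type libraries, and *Ly6g* was at 0 in 1 library. Of 6 lymphocyte and NK cell markers, 2 could be tested. *Klrb1c*, a receptor gene of NK cells, was called higher, with 208, 56.4, 45.4 and 91.4 normalized counts in mutant libraries 1 to 4 and 0 in all wild-type libraries but replicate 3, which had 0.865. *Cd79a* was not called, and *Cd3e*, *Cd3g* and *Nkg7* were at 0 in at least 1 library. The summed level of these 6 ran from 160 to 280 in mutant and from 135 to 220 in wild-type libraries, and the part of leukocytes in the *Adgrg3* counts was not tested.

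*Adgrg3* sits in a row with its relatives *Adgrg5* and *Adgrg1* on the same strand, and only 3474 bases separate the end of *Adgrg1* from its start. *Adgrg1*, which encodes GPR56, a receptor for collagen III known from the developing cortex, had 3383, 3297, 3127 and 3248 normalized counts in mutant libraries 1 to 4. In wild-type libraries 1 to 4 it had 3029, 3069, 3282 and 2822. The groups overlapped, and the log2 fold change was 0.10 (95% interval -0.05 to 0.24, edgeR adjusted p = 0.248). *Adgrg5* had means of 94.4 and 67.3 normalized counts in mutant and wild-type libraries, with a log2 fold change of 0.48 that did not pass (edgeR adjusted p = 0.0616). Of the 11 other genes tested within 200 kb of *Adgrg3*, leaving *Adgrg1* aside, 4 were called, where 14.0% of all genes were called. Of the 4, 1 was higher and 3 were lower (5.90% and 8.05% of all genes). That one, *Gm45757*, begins 731 bases beyond the end of *Adgrg3* on the same strand and rose from 4.74 to 21.1 normalized counts (log2 fold change 2.15, edgeR adjusted p = 0.00425). The 3 that were lower were *Dok4*, an adaptor of receptor tyrosine kinases (log2 fold change -2.31), *Kifc3*, a kinesin (-1.66), and *Cngb1*, a channel subunit (-1.37). The genes called higher at this locus were thus *Adgrg3* and the short transcript after it. The 3 called lower lay 54578 (*Kifc3*), 141362 (*Dok4*) and 193795 (*Cngb1*) bases from *Adgrg3*. The nearer genes *Adgrg1*, before it, and *Drc7*, after that transcript, were not called (log2 fold change 0.10 and 0.73).

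**Figure D2:**
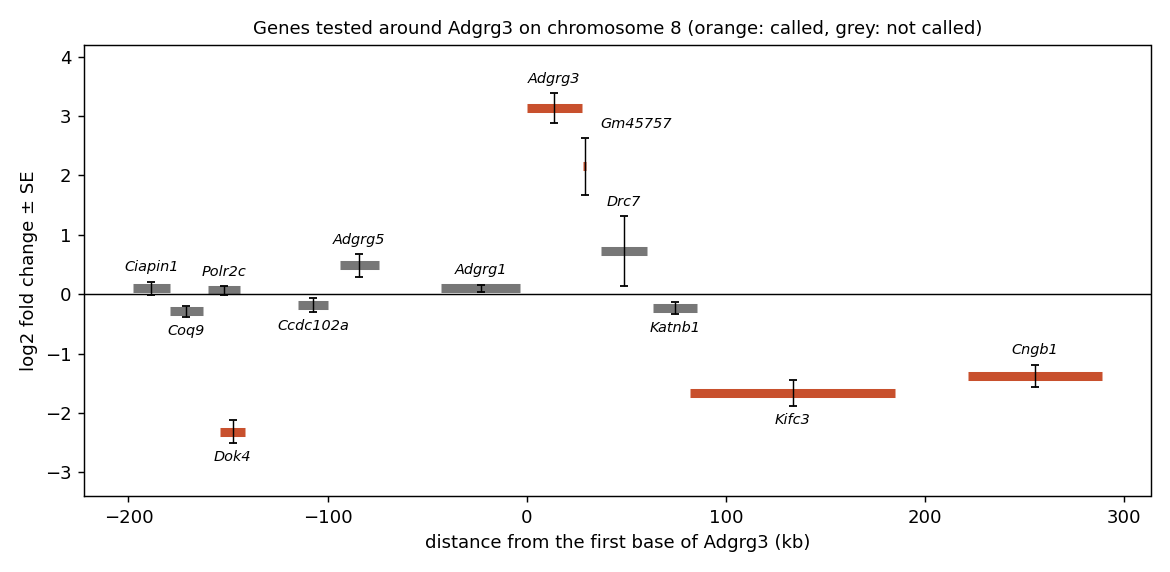
Log2 fold change, mutant over wild type, with its standard error (vertical axis) of the genes tested around *Adgrg3*, drawn as bars that span each gene at its distance in kb from the first base of *Adgrg3* (horizontal axis). *Adgrg3* stands at 3.14 and *Adgrg1*, which ends 3474 bases before it, at 0.10.

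The bases before the start of these neighbours, and of *Adgrl4*, the receptor with the next largest rise among the 10, are shown because they are the stretches where factors that act at a promoter could bind. RefSeq promoter windows on GRCm38.p6 were found for 9 of the 10 receptors, with 13 starts in all, and none for *Adgre5*. Capitals mark 1 longer form of the ETS site (CCGGAA or TTCCGG, called the ETS motif here) or an AP-1 site (TGANTCA, the same on both strands). These are 2 motifs of factors downstream of ERK, searched on both strands in the 250 bases before each start. The motifs did not overlap in the windows shown. The *Adgrg3* window covers chr8:95017442-95017691 (plus strand) and holds neither motif in the form searched. The shorter ETS core GGAA was not searched, and it occurs in lower case in the *Adgrg3* and *Adgrl4* windows.
Adgrg3: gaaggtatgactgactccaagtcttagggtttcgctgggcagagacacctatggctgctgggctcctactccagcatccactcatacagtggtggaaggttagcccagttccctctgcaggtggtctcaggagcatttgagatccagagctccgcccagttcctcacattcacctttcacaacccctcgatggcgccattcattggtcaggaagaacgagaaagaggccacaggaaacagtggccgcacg
The window before the second *Adgrg1* start covers chr8:94984149-94984370 (plus strand, the last 28 bases before the start left out because they are exonic) and holds a pair of AP-1 sites, although this gene did not pass the test.
Adgrg1: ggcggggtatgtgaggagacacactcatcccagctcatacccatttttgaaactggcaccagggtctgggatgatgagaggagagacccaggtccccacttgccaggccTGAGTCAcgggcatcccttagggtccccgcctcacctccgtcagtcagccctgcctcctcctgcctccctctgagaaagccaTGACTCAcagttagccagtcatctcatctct
The *Adgrl4* window covers chr3:151437632-151437881 (plus strand) and holds 1 ETS motif that begins 25 bases before the start.
Adgrl4: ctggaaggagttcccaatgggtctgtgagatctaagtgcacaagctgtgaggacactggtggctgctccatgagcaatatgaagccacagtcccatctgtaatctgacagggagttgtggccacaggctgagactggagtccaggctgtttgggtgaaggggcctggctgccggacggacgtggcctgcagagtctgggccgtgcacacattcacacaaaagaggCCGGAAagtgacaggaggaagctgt
The ETS motif was found in 3952 of 32851 RefSeq promoter windows of this length and an AP-1 site in 2217 (6.75%). Of the other starts of the 10 receptors, that of *Adgrl1* held 1 ETS motif, and no further AP-1 site was found. A match is a description of these letters and not a binding site.

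*Adgrl4* and *Adgrf5* were the most abundant of the 10 receptors in both groups. *Adgrl4* encodes ELTD1, an endothelial receptor linked to vessel sprouting, and lies on the plus strand of chromosome 3 from 151437887 to 151545086 (ENSMUSG00000039167). Mutant libraries 1 to 4 had 37001, 40200, 30393 and 31866 normalized counts of *Adgrl4*, and wild-type libraries 1 to 4 had 22709, 22916, 19784 and 26440. The lowest mutant value exceeded the highest wild-type value. The fold change was 1.52 (log2 fold change 0.60, standard error 0.11, edgeR adjusted p = 0.00187). *Adgrf5* encodes GPR116, known for the control of lung surfactant and also found on endothelium, and lies on the plus strand of chromosome 17 from 43389466 to 43459557 (ENSMUSG00000056492). It had 56820, 57680, 48788 and 44006 normalized counts in mutant libraries 1 to 4, and 57243, 57716, 47936 and 58536 in wild-type libraries 1 to 4. The ranges overlapped, although mutant replicate 4 was below every wild-type library. Wild-type replicate 3 stood below the other wild-type libraries, and of the mutant libraries only replicate 2 reached the range of those others. The log2 fold change was -0.10 (95% interval -0.33 to 0.14, edgeR adjusted p = 0.501), and -0.15 without wild-type replicate 3 (edgeR adjusted p = 0.294). Within each library the ratio of *Adgrl4* to *Adgrf5*, taken per length, was between 1.16 and 1.35 in mutant and between 0.739 and 0.841 in wild-type ECs, so the order of the pair was reversed in every mutant library.

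The 3 latrophilins, *Adgrl1*, *Adgrl2* and *Adgrl3*, bind teneurins and FLRT proteins of other cells and are best known from synapses. They lie apart in the genome, on chromosome 8 (83900105 to 83941954, plus strand), chromosome 3 (148815583 to 148990555, minus strand) and chromosome 5 (81020138 to 81825133, plus strand). *Adgrl1* was slightly lower in mutant ECs, with 3043, 3212, 3138 and 3007 normalized counts in mutant libraries 1 to 4 and 3743, 3963, 3618 and 3483 in wild-type libraries 1 to 4. The groups did not overlap, and the log2 fold change was -0.26 (standard error 0.06, edgeR adjusted p = 0.00763). Of its exonic bases, 12.9% are shared with *Gm10644* on the opposite strand, which had about 19.1 and 23.8 normalized counts in mutant and wild-type libraries. *Adgrl2*, the most abundant of the 3, did not pass the test. Its values were 13752, 15602, 14653 and 13703 in mutant libraries 1 to 4 and 15270, 14932, 14454 and 16636 in wild-type libraries 1 to 4 (log2 fold change -0.09, 95% interval -0.25 to 0.08, edgeR adjusted p = 0.378). *Adgrl3* was higher in mutant ECs. It had 2757, 3678, 2606 and 2609 normalized counts in mutant libraries 1 to 4 and 2226, 2284, 2145 and 2298 in wild-type libraries 1 to 4. The wild-type values were close together and mutant replicate 2 stood above the other mutant libraries, and the log2 fold change was 0.38 (standard error 0.11, edgeR adjusted p = 0.0159). Without that library it was 0.25 and still passed an adjusted p under 0.05. Of the exonic bases of *Adgrl3*, 8.91% are shared with *Gm16054* on the opposite strand, which had 47.3 and 35.9 normalized counts in mutant and wild-type libraries. Of the latrophilins, *Adgrl3* was thus higher and *Adgrl1* lower, each by less than 1.5-fold.

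*Adgre5* and *Adgrg6* were lower in mutant ECs. *Adgre5* encodes CD97, a receptor of leukocytes and other cells that binds the complement regulator CD55, and lies on the minus strand of chromosome 8 from 83723251 to 83741326 (ENSMUSG00000002885), 158778 bases from *Adgrl1*. Mutant libraries 1 to 4 had 6974, 8204, 7992 and 6790 normalized counts of *Adgre5*, and wild-type libraries 1 to 4 had 11387, 11372, 10111 and 11498. All mutant libraries were below all wild-type libraries, and the log2 fold change was -0.57 (standard error 0.08, edgeR adjusted p = 4.37e-04), which is 1.48-fold lower. *Ddx39*, on the opposite strand, shares 23.8% of the exonic bases of *Adgre5*, and whether the counting used the strand is not given in the sources used here. *Ddx39* had 2781 and 2742 normalized counts in mutant and wild-type libraries (log2 fold change 0.02, edgeR adjusted p = 0.859). Markers of microglia and macrophages, which also carry CD97, had summed levels of 2183 to 8390 in mutant and 2602 to 10940 in wild-type libraries, and none of the 6 was called.

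*Adgrg6* encodes GPR126, which Schwann cells need to form myelin and which binds collagen IV, and lies on the minus strand of chromosome 10 from 14402583 to 14545179 (ENSMUSG00000039116). It had 1174, 1719, 1628 and 1026 normalized counts in mutant libraries 1 to 4, and 1905, 1992, 1932 and 1766 in wild-type libraries 1 to 4. Mutant replicates 2 and 3 came close to the wild-type libraries without reaching them, and mutant replicates 1 and 4 were well below. The log2 fold change was -0.45 (standard error 0.15, edgeR adjusted p = 0.0302). This pass was lost without any 1 of mutant replicates 1 and 4 and wild-type replicates 1, 2 and 3, with adjusted p between 0.0596 and 0.0999 and a log2 fold change between -0.44 and -0.31.

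The mutant libraries were not alike. For *Adgrg3*, replicates 1 and 4 had 6135 and 6541 normalized counts and replicates 2 and 3 had 3171 and 3138, and replicates 1 and 4 also had the lowest counts of *Adgrg6* and of *Adgre5*. *Map2k1* itself had 18734, 12692, 12707 and 14342 normalized counts in mutant libraries 1 to 4, so replicates 1 and 4 were also the highest for the targeted gene. *Adgrl4* and *Adgrf5* followed another order, with replicates 1 and 2 above 3 and 4. The coefficient of variation over the mutant libraries was 38.9% for *Adgrg3* and 24.4% for *Adgrg6*, against 10.4% and 5.03% over the wild-type libraries. With 4 libraries, no relation between these values was tested.

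*Adgrb3* encodes BAI3, a receptor of neurons that binds C1q-like proteins at synapses, and had few reads in these libraries. It lies on the minus strand of chromosome 1 from 25067476 to 25829707 (ENSMUSG00000033569). The reads counted on *Adgrb3* were 5, 12, 2 and 21 in mutant libraries 1 to 4 and 41, 14, 78 and 12 in wild-type libraries 1 to 4. Wild-type replicates 1 and 3 were high, and the other wild-type libraries lay among the mutant libraries. The log2 fold change of -1.67 (95% interval -3.12 to -0.21) did not pass (edgeR adjusted p = 0.0616), and without wild-type replicate 3 it was -1.03. It became a call, with adjusted p of 0.0335 and 0.0345, with DESeq2 and without the filter on low counts. *Adgrb3* had its highest counts in wild-type replicate 3, which also had the highest sum of neuron markers (2230 normalized counts). Its next highest were in wild-type replicate 1, with a sum of 1755. Below these the order was not kept. Wild-type replicate 4, with a sum of 1284, had 12.7 normalized counts of *Adgrb3*, and mutant replicate 4, with a sum of 906, had 18.3. The sum of neuron markers was lower in mutant libraries as well, as given above, and the part of neurons in the *Adgrb3* values was not tested.

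**Figure D3:**
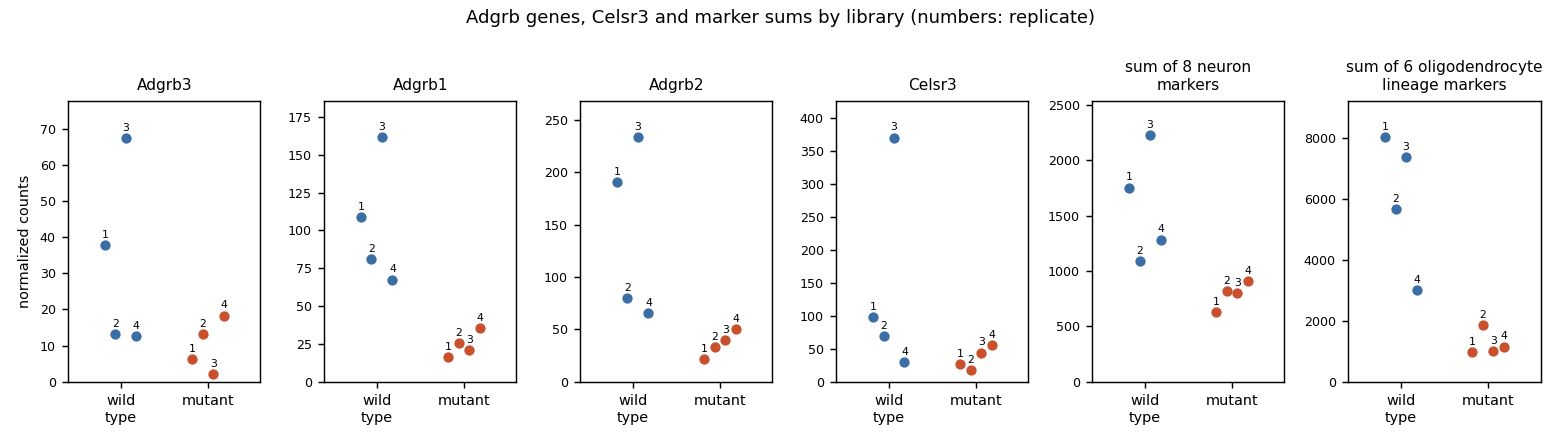
Normalized counts (vertical axes, from 0) of *Adgrb3* and of 3 other family genes, and the summed normalized counts of 8 neuron and 6 oligodendrocyte lineage markers, in the 4 wild-type (blue) and 4 mutant (orange) libraries, with replicate numbers. Wild-type replicate 3 is highest in the first 5 panels, and the neuron sum runs from 1088 to 2230 in wild-type and from 629 to 906 in mutant libraries.

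Levels of different receptors were compared per length, as RPKM (counts scaled by gene length and library size). In wild-type ECs *Adgrf5* had the highest level, at 219 ± 19.6 RPKM (SD, n = 4), followed by *Adgrl4* at 169 (145 to 194 over the libraries) and *Adgre5* at 99.5 ± 5.89. Then came *Adgrl2* at 36.4 ± 2.22, *Adgrg1* at 19.0 ± 1.17 and *Adgrl1* at 14.5 ± 0.799. *Adgrg6* at 5.45 ± 0.274, *Adgrl3* at 4.25 ± 0.132 and *Adgrg3* at 2.63 ± 0.273 were low, and *Adgrb3* stood at 0.0595 ± 0.0471. Only *Adgrf5* and *Adgrl4* overlapped as neighbours in this order over the 4 libraries. In mutant ECs *Adgrl4* came first, at 256 ± 33.4 RPKM (SD, n = 4), with *Adgrf5* at 205 ± 25.9 overlapping it. By its mean *Adgrg3* had moved from the ninth to the fifth place, at 23.2 ± 9.00 RPKM, where it overlapped *Adgrg1* at 20.3 ± 0.665. *Adgre5* had fallen to 67.2 ± 6.38 RPKM and kept the third place. Within the mutant libraries 1 to 4 the ratio of *Adgrg3* to *Adgrg1* was 1.42, 0.755, 0.788 and 1.58, so *Adgrg3* was above *Adgrg1* in replicates 1 and 4 and below it in replicates 2 and 3. In wild-type libraries the ratio was 0.123 to 0.170.

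**Figure D4:**
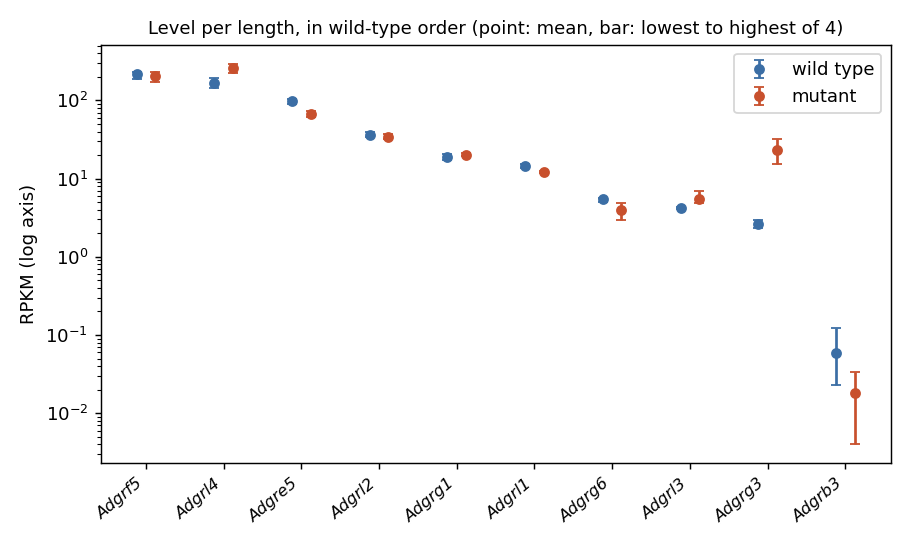
Level per length in RPKM (vertical log axis) of the 10 receptors in the order of the wild-type means, with the mean as a point and the lowest to highest of 4 libraries as a bar for wild-type (blue) and mutant (orange) ECs. *Adgrg3* rises from 2.63 to 23.2 RPKM and *Adgrl4* passes *Adgrf5*.

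All 30 adhesion GPCR genes looked for were among the genes counted. Summed as RPKM, the 10 receptors made up 87.2% to 89.5% of the family in mutant libraries and 83.9% to 87.2% in wild-type libraries. *Adgrl4* alone held 36.1% ± 1.85 (SD, n = 4) of the family sum in mutant ECs, against 25.1% ± 1.73 (SD, n = 4). The share of *Adgre5* was 9.53% ± 0.980 (SD, n = 4) in mutant ECs, against 14.8% ± 0.142 (SD, n = 4). That of *Adgrg3* was 3.32% ± 1.40 (SD, n = 4) in mutant ECs, against 0.394% ± 0.0501 (SD, n = 4). Shares of 1 sum depend on each other, and no test was made on them.

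Of the other 20 family genes, 14 could be tested, and 6 were called, 2 higher and 4 lower (5.90% and 8.05% of all genes), with a median log2 fold change of -0.44. The higher genes were *Celsr1* and *Adgrf3*. *Celsr1*, a cadherin-like receptor of planar cell polarity, had 3386, 2095, 1928 and 2641 normalized counts in mutant libraries 1 to 4 and 414, 369, 325 and 283 in wild-type libraries 1 to 4. It was 7.22-fold higher with no overlap (log2 fold change 2.85, standard error 0.19, edgeR adjusted p = 3.94e-06), and, as with *Adgrg3*, mutant replicates 1 and 4 were its highest. *Adgrf3*, at 5.27 to 10.1 normalized counts in wild-type and 16.6 to 25.3 in mutant libraries, was also higher (log2 fold change 1.23, edgeR adjusted p = 0.00833). *Adgra1*, a family member found mainly in the nervous system, fell from 158 ± 24.8 (SD, n = 4) to 14.5 ± 4.85 (SD, n = 4) normalized counts, a log2 fold change of -3.42 (edgeR adjusted p = 8.00e-06).

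The other lower genes, *Adgrb1*, *Adgrb2* and *Celsr3*, are neuronal or glial receptors like *Adgrb3*. *Adgrb1* had 67.5 to 162 normalized counts in wild-type and 16.5 to 35.7 in mutant libraries (log2 fold change -2.06, edgeR adjusted p = 6.66e-04). *Adgrb2* had 65.4 to 233 and 21.5 to 50.5 (log2 fold change -1.96, edgeR adjusted p = 0.00417). For *Celsr3*, wild-type replicate 3 had 370 normalized counts and the other wild-type libraries 29.5 to 98.6, so the groups overlapped, and its log2 fold change of -1.96 (edgeR adjusted p = 0.0392) became -0.86 without that library (edgeR adjusted p = 0.156). The call of *Celsr3* was also lost without any 1 of wild-type replicate 1 and mutant replicates 1 to 4. The summed levels of neuron and of oligodendrocyte lineage markers were lower in mutant libraries as well, and the part of these cells was not tested. *Adgra2*, named here after its value was seen because of its role in brain vessels, was not called but lower, with 10401 ± 1039 (SD, n = 4) against 14367 ± 1992 (SD, n = 4) normalized counts (log2 fold change -0.47, edgeR adjusted p = 0.00671). The 6 genes not tested had means of at most 9.40 normalized counts.

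**Figure D5:**
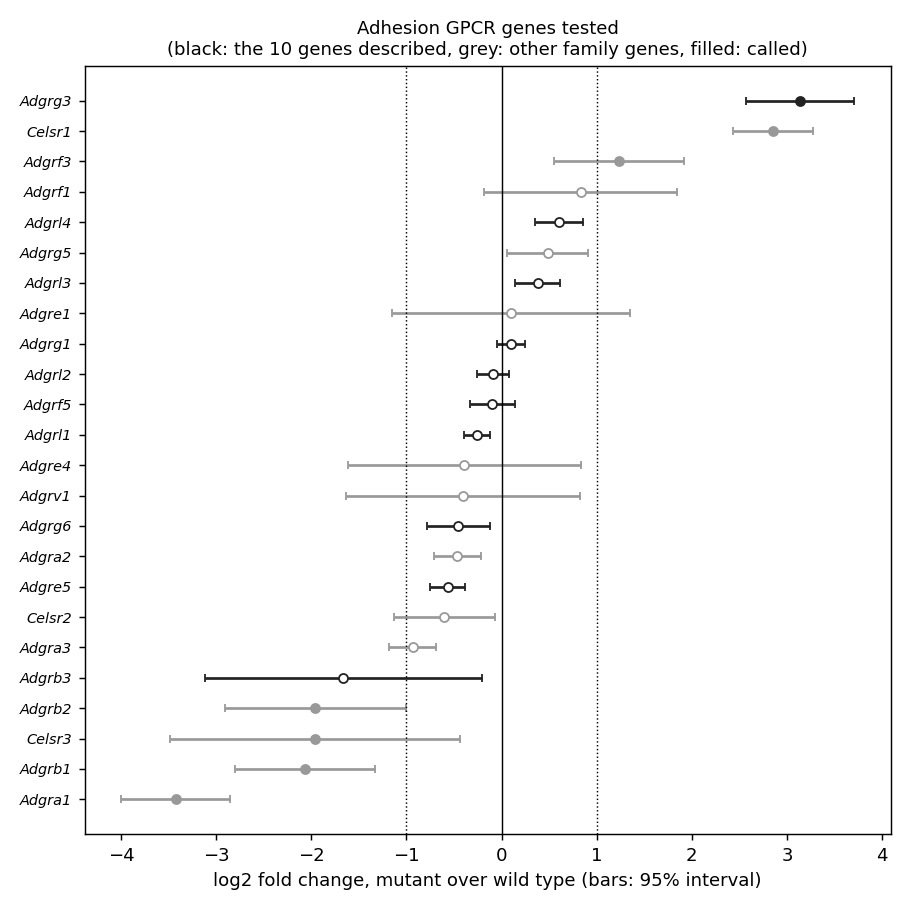
Log2 fold change, mutant over wild type (horizontal axis), with its 95% interval, of the 24 adhesion GPCR genes tested, the 10 receptors described in black and the other family genes in grey, filled where called. *Adgrg3* and *Celsr1* stand at 3.14 and 2.85, and *Adgra1* at -3.42.

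Genes for known ligands and partners of the family were followed to set the receptors beside what they bind. Of 35 genes on this list, 28 could be tested, 4 were called higher and 6 lower (5.90% and 8.05% of all genes), and the median log2 fold change was -0.48. At an adjusted p under 0.05 alone, 7 were higher and 11 lower (21.5% and 22.9% of all genes). For the latrophilins, the ligand gene *Flrt3* rose from 71.6 to 169 normalized counts (log2 fold change 1.23, edgeR adjusted p = 5.39e-04), *Flrt1* fell from 20.9 to 6.32 (log2 fold change -1.73, edgeR adjusted p = 0.0212), and the teneurin gene *Tenm4* fell from 93.8 to 43.4 (log2 fold change -1.11, edgeR adjusted p = 0.0298). The fall of *Flrt1* was not called without any 1 of mutant replicates 1 and 4 and wild-type replicates 1 and 3 (log2 fold change -1.67 to -1.36), nor that of *Tenm4* without any 1 of mutant replicates 1, 2 and 4 and wild-type replicates 2 and 3 (-1.12 to -0.78). The netrin receptor gene *Unc5a*, whose protein family binds FLRTs, rose from 88.7 to 215 (log2 fold change 1.28, edgeR adjusted p = 2.24e-04). The far more abundant *Flrt2* and *Unc5b* were not called but went the other way. *Flrt2* fell from 3122 to 1768 normalized counts (log2 fold change -0.82, edgeR adjusted p = 0.00109). *Unc5b* fell from 10642 to 6182 (log2 fold change -0.78, edgeR adjusted p = 6.89e-04).

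*Col4a1*, a chain of collagen IV, which *Adgrg6* binds, was the most abundant called gene of the list and rose from 103500 ± 7947 (SD, n = 4) to 219980 ± 19592 (SD, n = 4) normalized counts (log2 fold change 1.09, edgeR adjusted p = 1.95e-05). *Adgrg6* itself was lower, as given above. The tetraspanin gene *Cd9* rose from 1560 to 3965 (log2 fold change 1.35, edgeR adjusted p = 1.18e-05). *Cd81*, the other tetraspanin gene of the list, had more counts, was not called and went the other way. It fell from 13269 to 9187 normalized counts (log2 fold change -0.53, edgeR adjusted p = 7.11e-04). *Fndc4*, reported as a ligand of *Adgrf5*, fell from 163 to 68.4 (log2 fold change -1.25, edgeR adjusted p = 0.00108), and *C1ql1*, a C1q-like ligand of *Adgrb3*, from 43.9 to 5.38 (log2 fold change -2.92, edgeR adjusted p = 0.00379). *Reck*, whose protein works with *Adgra2* in the reception of Wnt7, fell from 3102 ± 401 (SD, n = 4) to 1525 ± 269 (SD, n = 4), with a log2 fold change of -1.02 (edgeR adjusted p = 1.80e-04). That value lies at the limit for a call, and without mutant replicate 1 or 4 or wild-type replicate 1 or 4 it was between -0.97 and -0.92 and not called. *Adgra2* was lower as well, as given above.

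G protein subunits, arrestins, receptor kinases and effectors, through which adhesion GPCRs can signal, were followed last. All 24 genes of this list were tested, and 1 was called higher and 1 lower, where 14.0% of all genes were called, with a median log2 fold change of 0.10. Both called genes had low counts. *Gna14* rose from 13.8 to 32.7 normalized counts (log2 fold change 1.24, edgeR adjusted p = 0.0136), and *Gnaz* fell from 36.1 to 14.6 (log2 fold change -1.30, edgeR adjusted p = 0.0180, and 0.0519 without wild-type replicate 3). At an adjusted p under 0.05 alone, 7 of the 24 were higher and 4 lower, where 44.4% of all genes passed.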

How the data were processed

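After trimming (Trimmomatic) and alignment to GRCm38 (STAR), the authors deposited whole-number counts per gene, 1 set for each of the 8 libraries, with exon positions and gene length. The counting program, the annotation release, the strand setting and the handling of reads that map to several places are not given in the sources used here. A deposited set of normalized values was not used. Of 49315 gene identifiers, 48970 matched a symbol. The test was edgeR 4.0.16 (R 4.3.3) on these counts: TMM scaling, filterByExpr (minimum count 10), glmQLFit and glmQLFTest with no covariate, mutant against wild type, 4 libraries each, and Benjamini-Hochberg adjustment over all 16887 genes tested. Calls needed a log2 fold change beyond 1 in either direction and an adjusted p below 0.05, following the study. DESeq2 1.42.0 was an alternative. RPKM used the deposited gene length.

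Each pup gave 1 library, and p-values weigh the difference between the groups against the spread between pups within the groups. Libraries of a group differed by more than sampling noise (chi-square per degree of freedom 6.70 to 37.1), so none was merged. With this depth, counting error limits only genes with few counts. The study matched wild-type to mutant pups within litters, and same-numbered libraries share the leading digits of a description label, whose meaning the labels do not give. Deviations from the group means correlated at 0.20, 0.21, 0.29 and 0.02 in the same-numbered pairs, with the fourth near 0. Pairs of unlike number ran from -0.36 to 0.38, and the highest of all was mutant 4 with wild type 3. The test used no block, and fits with the number or the leading digits as a block were alternatives. The receptors and gene lists were chosen with earlier results of these data known. Genes named are the 10 receptors, *Map2k1*, and the called genes of the 3 lists of family, partner and G protein genes, at most 10 per list. A called gene of the partner list is not reported here. The neighbours of *Adgrg3*, and *Adgrg5*, *Adgra2*, *Ddx39*, *Gm10644*, *Gm16054*, *Retnlg*, *Klrb1c*, *Cd79a*, *Gja1*, *Rbfox3*, *Flrt2*, *Unc5b* and *Cd81*, were chosen after their values were seen. Promoter windows are from RefSeq (GRCm38.p6).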

Additional observations from a re-analysis of the deposited data

Results flagged for a closer look

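In 4 of 58 groups of 4 libraries (29 genes named, 2 groups each), 1 library stood apart from the other 3 by more than Dixon's test allows, where chance gives about 1 in 20. Mutant replicate 2 had 3678 normalized counts of *Adgrl3*, and the other mutant libraries had 2606 to 2757. Wild-type replicate 3 had 47940 normalized counts of *Adgrf5* and 10110 of *Adgre5*, while the other wild-type libraries had at least 57240 and 11370. Mutant replicate 3 had 99.7 normalized counts of *Fndc4*, and the other mutant libraries had 55.7 to 61.8. Wild-type replicate 3 was also the library with the highest summed levels of neuron markers (2230 normalized counts) and of microglia and macrophage markers (10940) and the lowest of endothelial markers (343900). The part of these in its *Adgrf5* and *Adgre5* values was not tested.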

How the results depend on the processing

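The log2 fold changes of the 10 receptors were recomputed with DESeq2, median of ratios size factors, no filter on low counts, the top 80% of genes by mean, 2 blocks and each library left out. None of the 140 values changed sign, and 135 stayed on the same side of the limits for a call. The other 5 were *Adgrb3*, which was called with DESeq2 (-1.68), without the filter (-1.68) and without mutant replicate 4 (-2.14), wild-type replicate 2 (-1.93) or wild-type replicate 4 (-1.93). The number of receptors called was then 2, and ranged from 1 to 2 over the libraries left out. *Adgrg3* was called in all 14 alternatives, with an adjusted p of at most 1.42e-04. The number of called G protein and effector genes ran from 1 to 3 over the libraries left out. Ordered without division by gene length, 4 of 10 receptors kept their place in wild-type and 6 of 10 in mutant libraries, which follows from the lengths. With the replicate number as a block, 1032 genes were called higher and 1399 lower, against 996 and 1360 without it, and the log2 fold change of *Adgrg6* had an adjusted p of 0.00762. With that block *Celsr3* was not called (-1.58), and it changed no call of the 10 receptors. With the leading digits of the label as the block, which puts replicates 1 and 2 of both groups together, 1050 genes were called higher and 1406 lower, the adjusted p of *Adgrg6* was 0.0123, and no call of a named gene changed. Litters were matched between the groups, but which libraries share a litter is not given in the labels. Depth limits *Adgrb3*, with 2 to 78 reads per library, and the other genes of few counts.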
